A study of Oreochromis niloticus with 9 samples.

Results

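The baseline transcriptome of the liver was described in genetically improved farmed tilapia (GIFT), a selected strain of the Nile tilapia (Oreochromis niloticus), from the 3 libraries of the control group C among the 9 RNA-seq libraries of the series. The libraries were chosen by their labels. Pools C1, C2 and C3 came from fish fed a diet with 0% apple peel powder (APP, written APE in the labels) for 8 weeks, while the other libraries came from fish fed 0.2% or 0.8% APP and gave no value used here. Each library held liver RNA mixed from 5 fish of 1 tank, so the pool was the replicate (n = 3), and differences between fish, between tanks and between library preparations cannot be told apart. The study's tissue sections of fish on the control diet showed enlarged hepatocytes with shrunken nuclei and much stored fat, so the pools stand for liver on that diet and not for liver of normal structure. With 1 group described and no technical replicate, no test was made, and each statement on spread describes these 3 pools.

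The liver of a bony fish is built mainly of hepatocytes, which make the proteins of the blood plasma, store glycogen and fat, turn amino acids into sugar and detoxify foreign compounds. In tilapia, strands of exocrine pancreas grow into the liver along the branches of the portal vein, so that a piece of liver also carries acinar cells, which make digestive enzymes as inactive precursors. Blood cells, resident macrophages, bile duct cells, endothelium and connective tissue complete the organ. The descriptions below ask which of these functions dominate the RNA of this liver, and which genes differ most from one control pool to the next.

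Expression was given in FPKM, fragments counted per kilobase of transcript and scaled to the mapped fragments of each library. Levels can be set beside each other between genes and between pools only roughly, since FPKM does not fix the total of a library. The table held 37283 loci, of which 17574 carried a gene symbol, 4915 carried only an Ensembl identifier and 14794 had no name. The summed FPKM was 2631532 in C1, 2240169 in C2 and 2123520 in C3. The read counts behind single values were not used here, so counting error could not be separated from other spread.

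Most of the summed FPKM lay outside named genes. Loci with a symbol held 26.7% of it in C1, 31.5% in C2 and 25.6% in C3, and loci without any name held 65.9% ± 2.93 (SD, n = 3). The 10 loci of highest mean FPKM held 29.0% in C1, 18.3% in C2 and 21.4% in C3, and only 2 of these 10 had a symbol. Among the 100 highest loci, 38 had a symbol. The highest locus of all, an unnamed locus of 635 bp on scaffold AERX01076597.2, was listed at 162037 FPKM in C1, 51306 in C2 and 72587 in C3. Loci that spanned under 300 bp held 31.5%, 32.7% and 42.2% of the summed FPKM in C1, C2 and C3. FPKM of transcripts as short as the sequenced fragments can be inflated. For these reasons shares are given below of the FPKM summed over loci with a symbol, named symbol FPKM, unless stated otherwise.

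Among the named loci, a small set of genes dominated. The 10 highest held 28.3% ± 2.03 of the symbol FPKM, the 50 highest 55.0% ± 1.12 and the 100 highest 67.1% ± 1.09 (SD, n = 3). A mean of at least 1000 FPKM was reached by 115 named loci and a mean of at least 100 FPKM by 475. At the other end, 3487 of the named loci were listed at 0 in every C pool. Plasma proteins of the hepatocyte, ribosomal proteins and pancreatic proteases were prominent among the 30 highest. The locus that ranked 3 carries the name of a small nucleolar RNA, SNORA69, with 18483, 16276 and 15484 FPKM over a span of 3441 bp, so that its value may belong to a host gene. The same holds for SNORA19 and a locus named SNORD35 and si:dkey-159f12.2, with means of 3849 and 4589 FPKM.

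**Figure D1:**
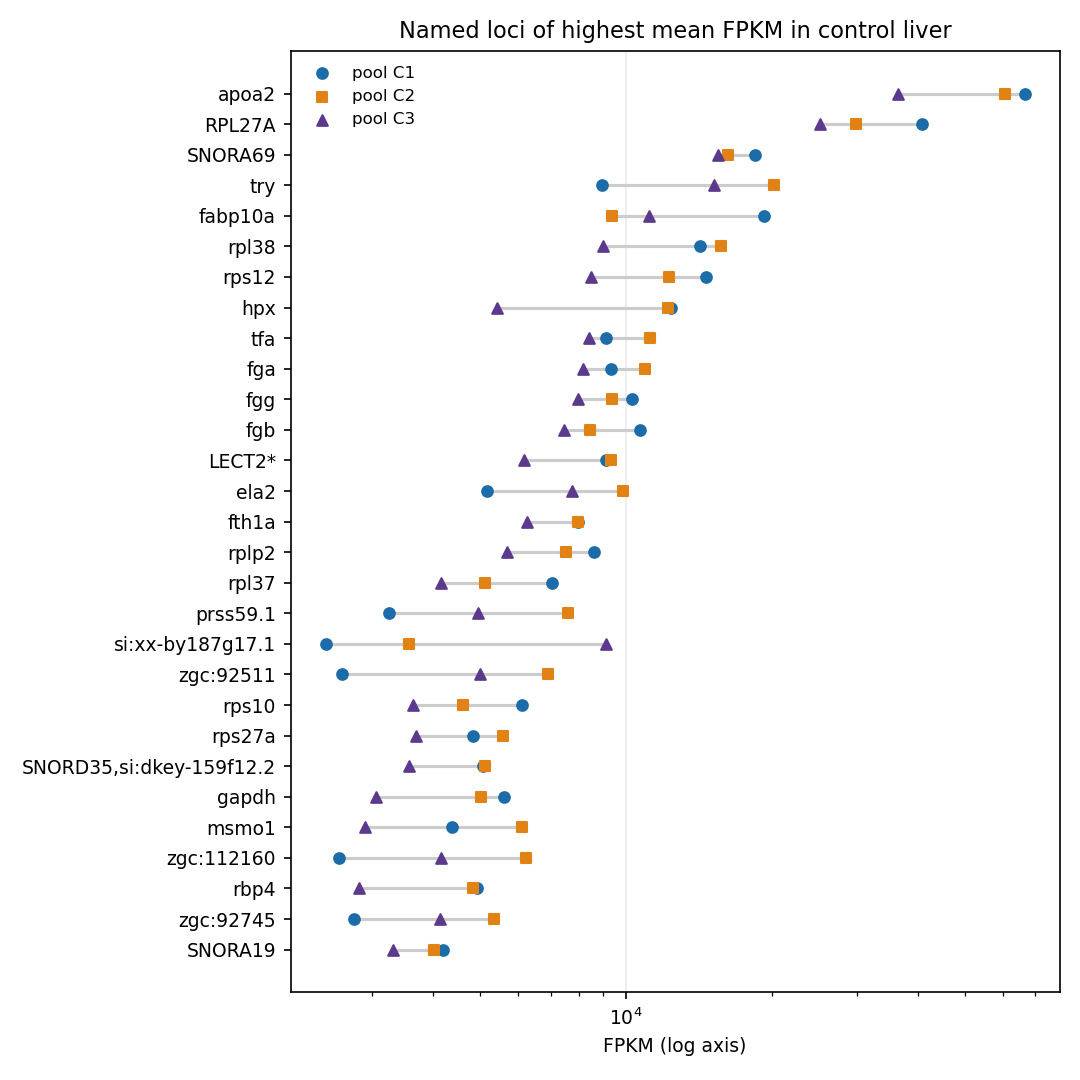
FPKM (log axis) of the 30 named loci with the highest mean in control liver, less 1 that is not reported here, with 1 point for each pool of 5 fish and a grey line from the lowest to the highest pool. An asterisk marks a name that the table gives to several loci. The plasma protein gene apoa2 led with a mean of 54554 FPKM, and the pancreatic protease genes try, ela2, prss59.1 and zgc:112160 were lowest in C1 and highest in C2.

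Lipid transport began with the single most abundant named gene. The gene apoa2 (apolipoprotein A-II, a protein of high density lipoprotein, GL831224.1:152123-153893) was present at 66549, 60602 and 36512 FPKM in C1, C2 and C3, a mean of 54554 ± 15906 (SD). It was lowest in C3 and ranked first of all named loci. The apolipoprotein list of 18 loci held 8.55% ± 1.43 of the symbol FPKM, and apoa2 alone made up 96.6% of that list. The other members were far lower. APOH, a phospholipid-binding plasma protein, followed at 1509.9, 1301 and 821 FPKM, and apoeb, which carries cholesterol to receptors, at 589.8, 215 and 320.3 FPKM. The gene apoba, the core protein of very low density lipoprotein, was listed at only 19.5, 18.4 and 11.01 FPKM. A locus named apoa1a, for the main protein of high density lipoprotein, was 1 of 7 of the 18 loci listed at 0 in all 3 pools. Whether such a gene was counted under a locus without a symbol was not tested.

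Carrier proteins of the plasma held 5.58% ± 0.480 of the symbol FPKM. Hemopexin (hpx), which binds free heme, was present at 12382, 12227 and 5429.8 FPKM in C1, C2 and C3, with C3 below both other pools. Transferrin (tfa), the iron carrier, was steadier at 9129.6, 11222 and 8408 FPKM. The retinol carrier rbp4 stood at 4936, 4835 and 2819 FPKM. Haptoglobin, which binds free hemoglobin, was given by a pair of loci named hp. The higher had 2545, 2859.8 and 2036 FPKM and the lower, in which C2 was the lowest pool, had 1368, 561 and 1112 FPKM. Ceruloplasmin (cp), a copper-containing ferroxidase, had 615, 627 and 497 FPKM. Of the 21 loci of the list, 18 had a mean of at least 1 FPKM, and 4 of the 14 with a mean of at least 10 FPKM ranged by 2-fold or more among the pools (28.6%, beside 17.4% of all named loci). The 4 include rbp2a, at 80.4, 85.3 and 363 FPKM, which is not itself a plasma carrier.

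The genes of the 3 chains of fibrinogen, the protein that forms the clot, had similar mean levels. The alpha chain gene fga had 9320.4, 10958 and 8153 FPKM, the gamma chain gene fgg 10282, 9375 and 7962 FPKM and the beta chain gene fgb 10704, 8461 and 7471 FPKM in C1, C2 and C3. Their means were 9477, 9207 and 8879 FPKM, with an SD over the pools of 1409, 1169 and 1656 FPKM. The order changed between pools, with fgb the highest of the 3 genes in C1 and fga in C2 and C3. Together the 3 genes made up 85.6% of the clotting factor list, which held 4.95% ± 0.161 of the symbol FPKM. Prothrombin (f2) followed at 1298, 1152 and 760.4 FPKM. Factor X (f10), which converts prothrombin to thrombin, had 435, 302 and 204 FPKM. Inhibitors of the cascade were also abundant, with heparin cofactor II (serpind1) at 2369.8, 1784 and 1336 FPKM and antithrombin (serpinc1) at 1122, 1221 and 728 FPKM. The plasmin inhibitor gene serpinf2b had 1194, 979 and 649 FPKM. A locus named both ALDH18A1 and HABP2 had 1122, 879.8 and 578 FPKM and cannot be assigned to either gene. All 17 clotting factor loci with a mean of at least 10 FPKM were lowest in C3 (15 after median-ratio scaling). C3 was also the lowest pool in 56.9% of all named loci, and this share was 63.4% at 30 to 100 FPKM, 79.6% at 100 to 1000 FPKM and 85.1% from 1000 FPKM, the levels at which these 17 lie.

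Innate defence proteins were a further secreted group. A locus named LECT2, for leukocyte cell-derived chemotaxin, had 9130.4, 9322 and 6169 FPKM, and 2 loci named LYZ, for lysozyme, had 4328, 4199 and 2441 FPKM and 1705, 1634 and 677 FPKM in C1, C2 and C3. Each of these names is given to several loci, so reads may be split among near-identical copies. The complement list held 0.976% ± 0.0535 of the symbol FPKM. Its leading members were c8g, a subunit of the membrane attack complex, at 1372, 1295 and 899 FPKM, a locus named both C1R and tapbpl at 1324, 1275 and 908 FPKM, and c5, from which the chemoattractant C5a is cut, at 903, 1187 and 806 FPKM. The liver hormone hepcidin (hamp), the main brake on iron release, was low at 4.25, 6.76 and 6.32 FPKM. Iron storage itself was prominent, with the ferritin heavy chain gene fth1a at 7976, 7966 and 6257 FPKM and the iron exporter gene slc40a1 at 172, 160.3 and 89.05 FPKM.

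The machinery of protein synthesis took the largest share of any function list. Cytosolic ribosomal proteins held 27.8% ± 1.42 of the symbol FPKM (7.77% ± 1.05 of all FPKM), and 74 of the 78 loci had a mean of at least 100 FPKM. The highest was RPL27A at 40859, 29840.4 and 25173 FPKM in C1, C2 and C3. Its locus spans 27784 bp (GL831310.1:424173-451956), and the FPKM may gather more than 1 transcript. Next came rpl38 at 14221, 15714 and 8990.1 FPKM and rps12 at 14665, 12308 and 8502 FPKM. Among the lists with over 30 loci of at least 10 FPKM, it had the smallest share that ranged by 2-fold. That share was 1 of 76 loci, which varied by 2-fold or more among the pools (1.32%). Of all named loci 17.4% did so, and of those from 1000 FPKM 14.0%. In 73 of the 76 the lowest pool was C3, and this count was 68 after median-ratio scaling. Of the 76, 54 had a mean of at least 1000 FPKM, where C3 was lowest in 85.1% of all named loci. Further members among the 30 highest named loci were rplp2, rpl37, rps10 and rps27a, with means of 7276, 5449.5, 4796 and 4706 FPKM. Translation factors were lower. A locus named eef1b2, for the exchange factor of the elongation complex, had 1144, 1394 and 955 FPKM, EEF2, which moves the ribosome along, 1239, 1107 and 903 FPKM and eef1a1l1, which delivers the aminoacyl-tRNA, 926, 963 and 865 FPKM.

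The listed subunits of mitochondrial respiration were expressed at a lower but steady level. The oxidative phosphorylation list held 1.35% ± 0.0149 of the symbol FPKM. This list had no detected subunit gene encoded in mitochondrial DNA, so its share leaves those genes out. Of its 67 loci with a mean of at least 10 FPKM, 3 varied by 2-fold or more (4.48%, beside 17.4% of all named loci). The ATP synthase subunit genes atp5ia and atp5e had 1139, 1457 and 1128 FPKM and 675, 473 and 372 FPKM. The cytochrome c oxidase subunit gene cox6a2 had 901, 869 and 736 FPKM. In the endoplasmic reticulum, sec61g, a subunit of the channel through which secreted proteins pass, had 1629, 1454 and 1242 FPKM. Of the cytosolic chaperones, hspa8 had 706, 432 and 442 FPKM, hsp90ab1 482, 364 and 331 FPKM and the small heat shock gene hspb8 147, 135 and 83.1 FPKM. Protein breakdown was represented by psme1, an activator of the proteasome, at 66.7, 58.1 and 94.2 FPKM and UBE2D3, which passes on ubiquitin, at 86.1, 57.8 and 57.8 FPKM. In the cytoskeleton list cfl1l, for an actin-severing protein, had 294, 269 and 295 FPKM and the keratin gene krt15 a mean of 128 FPKM.

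Fat handling inside the cell was led by fatty acid-binding proteins. The liver form fabp10a, which binds fatty acids and bile acids, had 19298, 9388 and 11155 FPKM in C1, C2 and C3, so that C1 lay above both other pools. A second liver form, fabp1b.1, had 1934, 1499 and 1529 FPKM. The gene cideb, for a protein of lipid droplets, had 469.6, 388 and 233 FPKM. The desaturase gene scd, which places the double bond in monounsaturated fatty acids, was the main lipogenic transcript at 3939.6, 4492 and 2538 FPKM and made up 82.9% of the fatty acid synthesis list. It was followed by a locus named fads2, a desaturase of polyunsaturated fatty acids, at 164, 181 and 136 FPKM and thrsp, a lipogenic regulator, at 92.4, 110.0 and 258 FPKM. Genes of fatty acid oxidation were far lower, with the thiolase gene acaa2 at 255, 295 and 105 FPKM and the acyl-CoA dehydrogenase genes acadvl at 106, 142 and 94.7 FPKM and acadm at 96.4, 150.2 and 74.6 FPKM. The whole oxidation list of 43 loci held 0.238% ± 0.0258 of the symbol FPKM. In 26 of its 31 loci with a mean of at least 10 FPKM, C2 was the highest pool, beside 40.1% of all named loci.

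Most of the FPKM of the cholesterol list came from 1 gene. The sterol oxidase gene msmo1, which removes methyl groups on the way to cholesterol, had 4393, 6103 and 2907 FPKM and made up 78.5% of the cholesterol list. The rate-limiting reductase gene hmgcra had 572, 465 and 287 FPKM, and cyp51, the lanosterol demethylase, had 307, 175 and 149 FPKM. The bile acid list held 0.0595% ± 0.0118 of the symbol FPKM. Its highest locus, named AKR1D1 for a reductase of bile acid synthesis, had 155, 144 and 79.7 FPKM, and hsd3b7, a dehydrogenase of the same pathway, had 50.8, 79.4 and 48.6 FPKM. The gene cyp7a1, the rate-limiting enzyme of bile acid synthesis, had 22.4, 52.03 and 6.21 FPKM, and abcc2, an export pump of the bile canaliculus, had 36.05, 121 and 49.5 FPKM.

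The glycolysis and gluconeogenesis list held 1.36% ± 0.160 and the amino acid list 1.24% ± 0.166 of the symbol FPKM. The glycolytic enzyme gene gapdh had 5615, 5024 and 3049.6 FPKM and mdh1aa, a cytosolic malate dehydrogenase, 979.6, 824 and 532 FPKM. Glucose-6-phosphatase, the last step of glucose release, was represented by g6pca.2 at 881, 1114 and 654 FPKM. The glycogen list was led by ugp2a, which makes the UDP-glucose for glycogen, at 1212, 952 and 492 FPKM. Liver glycogen synthase (gys2) was lower at 141, 148 and 86.3 FPKM, as was ppp1r3ca, which brings a phosphatase to glycogen, at 86.9, 68.9 and 73.6 FPKM. Among amino acid enzymes, agxt2, a mitochondrial aminotransferase, had 1324, 1606 and 812 FPKM, bhmt, which remethylates homocysteine with betaine, 1101, 917 and 918 FPKM, and tdo2b, the first enzyme of tryptophan breakdown, 1049, 907 and 543 FPKM. In 38 of the 41 loci of this list with a mean of at least 10 FPKM, C3 was the lowest pool (34 after median-ratio scaling), beside 47.0% of named loci at 10 to 30 FPKM, 63.4% at 30 to 100 FPKM and 79.6% at 100 to 1000 FPKM, with 11, 9 and 20 members at these levels.

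Detoxification and antioxidant defence were spread over many genes. The cytochrome P450 and conjugation list held 0.985% ± 0.0694 of the symbol FPKM, and its leading gene gstt1a, a glutathione transferase, had 1483, 1193 and 995 FPKM. A locus named cyp3a65, of the P450 family that oxidizes many drugs, had 414, 517 and 451 FPKM, and a locus named CYP2W1 had 429.7, 323 and 265 FPKM. Among aldehyde dehydrogenases, aldh1l1, which acts on folate, had 565, 545 and 378 FPKM and aldh9a1a.1 had 107, 239 and 169.9 FPKM. Of the antioxidant enzymes, gpx4a, which reduces lipid peroxides in membranes, had 1829.9, 1713 and 1021 FPKM and cat (catalase) had 1094, 999.9 and 764 FPKM. The plasma peroxidase gene gpx3 had 533, 502 and 202 FPKM. The share of the antioxidant list was even, at 0.751% ± 0.0109.

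The growth hormone axis was present at middle levels. The gene igf1, the growth factor that the liver releases under growth hormone, had 160.2, 149 and 77.1 FPKM, and igfals, which carries it in the blood, had 370.2, 333 and 219.6 FPKM. The binding protein gene igfbp1b, which is known to be raised by fasting, had 341, 668 and 323 FPKM and was highest in C2. Genes of cell division were low. The list of DNA replication and mitosis held 0.011% ± 0.00245 of the symbol FPKM, led by a locus that carries the name mcm7, for a subunit of the replication helicase, at 22.9, 34.8 and 36.7 FPKM. The mitotic gene ube2c had 16.1, 11.96 and 12.8 FPKM and pcna, the sliding clamp of replication, 6.89, 8.08 and 6.87 FPKM. Clock genes were likewise low, with a locus named BHLHE40 at 30.2, 30.4 and 24.7 FPKM, per3 at 10.9, 20.4 and 13.2 FPKM and nfil3-6 at 16.9, 11.6 and 11.3 FPKM.

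**Figure D2:**
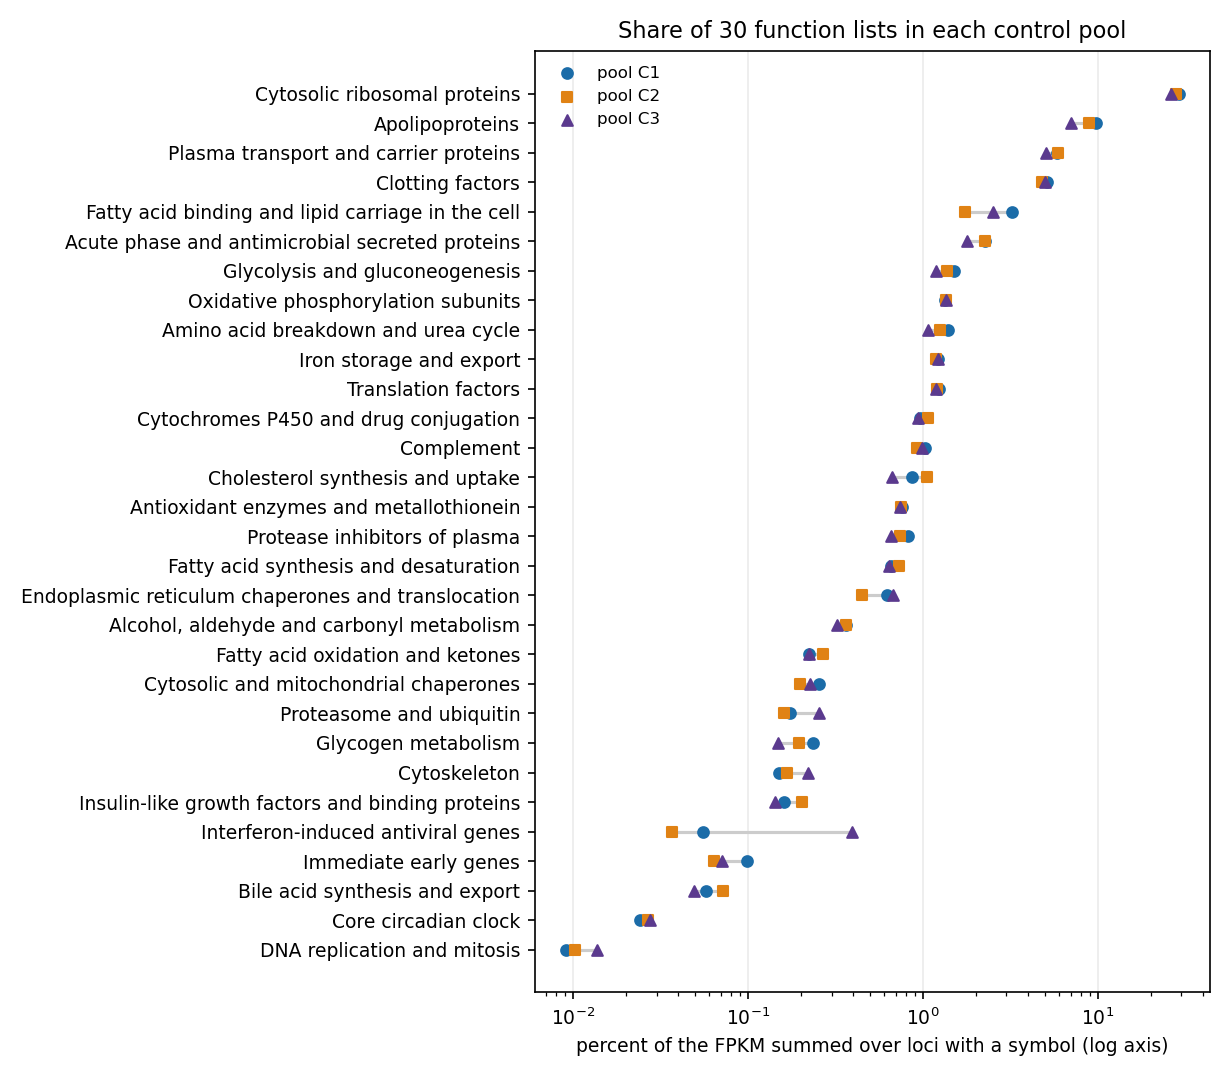
Share of the FPKM summed over loci with a symbol (log axis) for 30 function lists, with 1 point for each C pool and a grey line from lowest to highest. Ribosomal proteins held 27.8% on average and apolipoproteins 8.55%, while interferon-induced genes held 0.161% ± 0.200 (SD, n = 3).

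Exocrine pancreas genes were among the most abundant of the whole liver. The list of 23 acinar markers summed to 25057 FPKM in C1, 56391 in C2 and 41299 in C3, or 6.39% ± 2.46 of the symbol FPKM, and 22 of the 23 had a mean of at least 1 FPKM. Among the 14 marker lists only that of hepatocytes held a larger share. The lists were matched by gene symbol, so abundant loci with only an Ensembl identifier could enter none of them. An example is ENSONIG00000001489 at 12402, 17837 and 46249 FPKM in C1, C2 and C3. It is 1 of 3 abundant loci of 1 region, described at the end, that summed to 20916, 28584 and 82233 FPKM. That sum was above the acinar sum in C3 and below it in C1 and C2. The ranking therefore holds only for the lists as matched, and the marker list to which these loci would belong was not tested. The summed FPKM of the acinar list in C2 was 2.25 times that in C1, and in C3 1.65 times that in C1. Fewer acinar cells and less RNA per acinar cell cannot be told apart in pools of whole tissue.

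Proteases made up most of it. Trypsin (try, GL831539.1:61223-121657) had 8926, 20254 and 15195 FPKM in C1, C2 and C3 and ranked 4 among all named loci. The elastase gene ela2, whose product cleaves elastin and other proteins, had 5185, 9855 and 7738 FPKM, and its neighbour on the same scaffold, ela2l, had 1092, 1854 and 1249 FPKM. A second trypsin-like gene, prss59.1, had 3249, 7596 and 4964 FPKM. All 4 were lowest in C1 and highest in C2. The loci zgc:112160 and zgc:136461, which lie side by side on scaffold GL831133.1 and were included in the acinar list, had 2559.7, 6229 and 4158 FPKM and 1669.8, 4729.6 and 3144 FPKM. The elastase 3 gene ela3l had 295, 730.4 and 485 FPKM, while CELA3A was listed at 15.6, 17.2 and 15.6 FPKM, with hardly any distance between pools. The locus zgc:92590, also of the acinar list, had 197, 421 and 487 FPKM and was highest in C3 rather than C2.

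Enzymes that trim peptides and split fat followed at lower levels. Carboxypeptidase genes, whose products remove amino acids from the end of a peptide, were cpa4 at 500.0, 1151 and 991 FPKM, cpa1 at 442, 1161 and 1014 FPKM and cpb1 at 392, 1139.9 and 965 FPKM. The last of these had the widest spread of the 3. The bile salt-activated lipase gene cel.2 had 136, 291 and 262 FPKM. A locus named PLA2G1B, for pancreatic phospholipase A2, had 329, 835 and 522 FPKM, and a second, pla2g1b, had 11.7, 18.4 and 13.5 FPKM. Proteins that fold enzymes in the acinar endoplasmic reticulum were lower still, with ERP27 at 18.4, 56.2 and 40.2 FPKM and pdia2 at 7.27, 16.5 and 15.7 FPKM. The nuclease gene dnase1 had 17.3, 22.3 and 28.01 FPKM, with C3 highest.

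Regulators of acinar identity were detected at the low level usual for transcription factors. The factor bhlha15, which shapes the secretory cell, had 2.21, 4.63 and 3.25 FPKM and nr5a2, which hepatocytes also express, had 5.33, 4.44 and 4.51 FPKM. The acinar factor gene rbpjl had 4.83, 1.11 and 4.17 FPKM, and ptf1a, its partner in acinar cells, was below 1 FPKM in each pool, at 0.20 FPKM, 0.23 FPKM and 0.29 FPKM. In rbpjl and nr5a2 C2 was the lowest pool, unlike the enzymes.

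The more abundant acinar genes were ordered alike across pools. All 18 members with a mean of at least 10 FPKM were lowest in C1, beside 21.5% of all named loci. Of the 18, 16 were highest in C2, beside 40.1% of all named loci. The ratio of C2 to C1 had a median of 2.29 over the 18, with a range of 1.10 (CELA3A) to 3.05 (ERP27), while over the 472 named loci with a mean of at least 100 FPKM and no pool at 0 the median ratio was 1.01. On the log2(FPKM + 1) scale the mean over the 22 detected members was 7.02 in C1, 7.87 in C2 and 7.63 in C3. All 18 stayed lowest in C1 after median-ratio scaling and 17 after quantile normalization. The order of C2 and C3 depended on it, since 11 rather than 16 were then highest in C2 and the mean of C2 lay only 0.04 above that of C3 on the log2 scale.

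**Figure D3:**
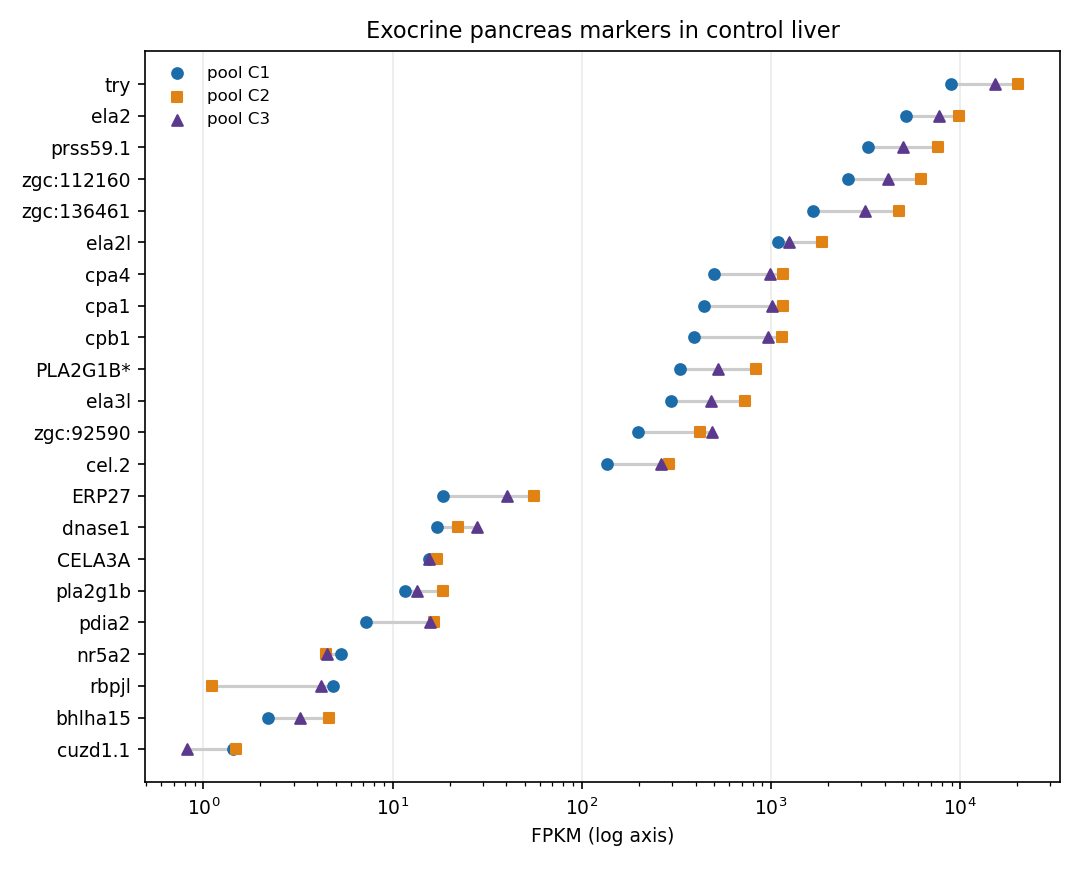
FPKM (log axis) of the 22 exocrine pancreas markers with a mean of at least 1 FPKM in control liver, with 1 point for each C pool and a grey line from lowest to highest. The 18 with a mean of at least 10 FPKM were lowest in C1, and the lowest rows are the transcription factors and cuzd1.1.

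The same order of pools was then looked for in all named loci of at least 100 FPKM. In 23 of 472, C2 was above C3, C3 above C1 and C2 at least 1.5 times C1, and 12 of these 23 were members of the acinar list. Among the other 11, zgc:92511 had 2602, 6907 and 4999 FPKM and zgc:92745 had 2757, 5362 and 4141 FPKM. Both lie on scaffold GL831330.1, between positions 779646 and 792000, and neither was in the list. The gene endou, for an endoribonuclease, had 657, 1652 and 1218 FPKM. Their order was the measure by which they were found and is no test of their source. The locus named cox6a1 was also among them, but it shares the span of pla2g1b in the table, so reads of the 2 genes may not be told apart. The antimicrobial gene pglyrp2, which codes for an enzyme that cuts bacterial peptidoglycan, had 79.2, 197 and 147 FPKM.

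Islet cells left only traces. The genes of insulin (ins), glucagon (gcga) and somatostatin (sst1.1) were listed at 5.06, 5.42 and 4.87 FPKM in C2 and at 0 in C1 and C3. Of the 23 endocrine loci, 5 had a mean of at least 1 FPKM and 10 were listed at 0 in every pool. The other detected members, both transcription factor genes, did not share this order. The highest of the list, mafba, had 7.12, 5.47 and 3.86 FPKM and was highest in C1, and pdx1, which duct and islet cells use, had 0.82, 1.80 and 1.90 FPKM.

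The label of the tissue was checked against other marker lists. Of 51 hepatocyte loci, 43 had a mean of at least 1 FPKM, and the list held 21.1% ± 2.25 of the symbol FPKM. The 8 others included apoa1a, hpdb and copies named MAT1A and rbp4l, listed at 0 in each pool. Red blood cell genes of the marker list were present at middle levels, with the band 3 anion exchanger gene slc4a1a at 43.4, 75.7 and 176 FPKM and alas2, the first enzyme of heme synthesis in erythroid cells, at 59.3, 79.96 and 146 FPKM in C1, C2 and C3. Both were highest in C3. Loci named hbae3 belong to that list, but the abundant loci beside them without a usable name, described at the end, do not. Macrophage and antigen-presenting cells were marked by cd74b, the invariant chain of class II molecules, at 981, 967 and 1247 FPKM. The myeloid marker ptprc, the common leukocyte antigen, had 27.7, 28.7 and 34.95 FPKM.

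Structural cells were rare in RNA. Connective tissue genes were led by mgp, an inhibitor of calcification, at 14.1, 29.5 and 32.8 FPKM, bgnb, a matrix proteoglycan, at 15.8, 21.99 and 27.6 FPKM and sparc, a matrix protein of collagen-rich tissue, at 7.68, 17.02 and 33.9 FPKM, all 3 highest in C3. Other members were divided, with tagln, col1a1b and col1a1 highest in C3 and rgs5a, col6a1, col6a2, dcn and col1a2 highest in C2. Of all named loci 18.9% were highest in C3 and 40.1% in C2. In the endothelial list a locus that carries the name egfl7 had 10.1, 15.4 and 13.2 FPKM and cldn5b, a tight junction gene, 8.33, 13.4 and 10.1 FPKM. The endothelial receptor gene kdr, for vascular endothelial growth factor, had 6.64, 8.33 and 6.77 FPKM. Bile duct keratins were krt8 at 186, 198 and 173 FPKM and krt18 at 86.6, 109 and 71.4 FPKM, which fish hepatocytes also express, and the water channel gene aqp1a.1 had 59.7, 71 and 161 FPKM. Of 53 lymphoid loci, 19 had a mean of at least 1 FPKM, with tcf7, a T cell factor, at 10.5, 15.4 and 12.4 FPKM, the chemokine receptor gene ccr9a at 13.5, 13.8 and 10.4 FPKM and the B cell kinase gene btk at 3.78, 5.03 and 9.35 FPKM. Of 11 thrombocyte loci, 7 reached that mean, led by gp9 at 5.73, 8.67 and 19.2 FPKM, itga2b at 6.82, 6.55 and 10.7 FPKM and gfi1b at 5.03, 4.77 and 4.68 FPKM. Of 25 intestinal loci, 3 reached that mean, and 18 were listed at 0 in each pool. Those 3, slc15a1b, cdh17 and CDHR2, had means of 1.99, 1.47 and 1.29 FPKM. Of 17 kidney loci, 4 reached it, with lrp2a at 15.4, 25.4 and 6.42 FPKM, a locus named herpud1 and slc12a3 at 8.95, 12.3 and 16.4 FPKM and slc20a1a at 3.02, 5.89 and 23.5 FPKM. Of 46 skeletal muscle loci, 3 reached it and 28 were listed at 0, and the 1 abundant member, eno3, is an enolase of 422, 357 and 317 FPKM that other tissues use as well. The muscle actin locus ACTA1 had 2.70, 5.40 and 20.7 FPKM and the muscle creatine kinase gene ckma 3.10, 3.27 and 3.98 FPKM. The yolk protein gene vtg3, which the liver of maturing females makes, was at 0.81 FPKM, 0.54 FPKM and 0.12 FPKM. The estrogen receptor genes esr2b and esr2a had 9.39, 4.69 and 4.69 FPKM and 7.12, 5.37 and 2.74 FPKM.

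Variation among the pools was measured as the range of log2(FPKM + 1) over C1, C2 and C3, where a range of 1 is a 2-fold distance. Only loci with a mean of at least 10 FPKM and no pool at 0 were counted. Of 5369 such loci, 1960 (36.5%) ranged by 2-fold or more. With a symbol there were 2703, and 469 of these (17.4%) did so. The median SD was 0.29 over the named loci and 0.39 over all loci on the log2 scale. The log2 values correlated across the 2703 named loci with r = 0.958 for C1 and C2, 0.935 for C1 and C3 and 0.934 for C2 and C3, which describes loci that share a library and not independent samples.

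The 3 pools did not stand in equal positions. C1 was the highest pool in 41% of the 2703 named loci, C2 in 40.1% and C3 in 18.9%, and C3 was the lowest in 56.9%. The lower position of C3 was mainly that of abundant genes. At mean levels of 10 to 30 FPKM, C3 lay at a median of -0.12 from the mean of C1 and C2 on the log2 scale, and at 100 to 1000 FPKM it lay at -0.49. Median-ratio scaling shifted C3 by 0.13 and C1 and C2 by -0.06 and -0.09 on the log2 scale, and C3 was then lowest in 1109 of the 2703 loci, against 1537 as deposited. With factors taken from all loci above 0, the shift of C3 was only -0.009. Counts after median-ratio scaling therefore hold for the loci from which the factors were taken. A list is therefore read below beside these background shares.

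**Figure D4:**
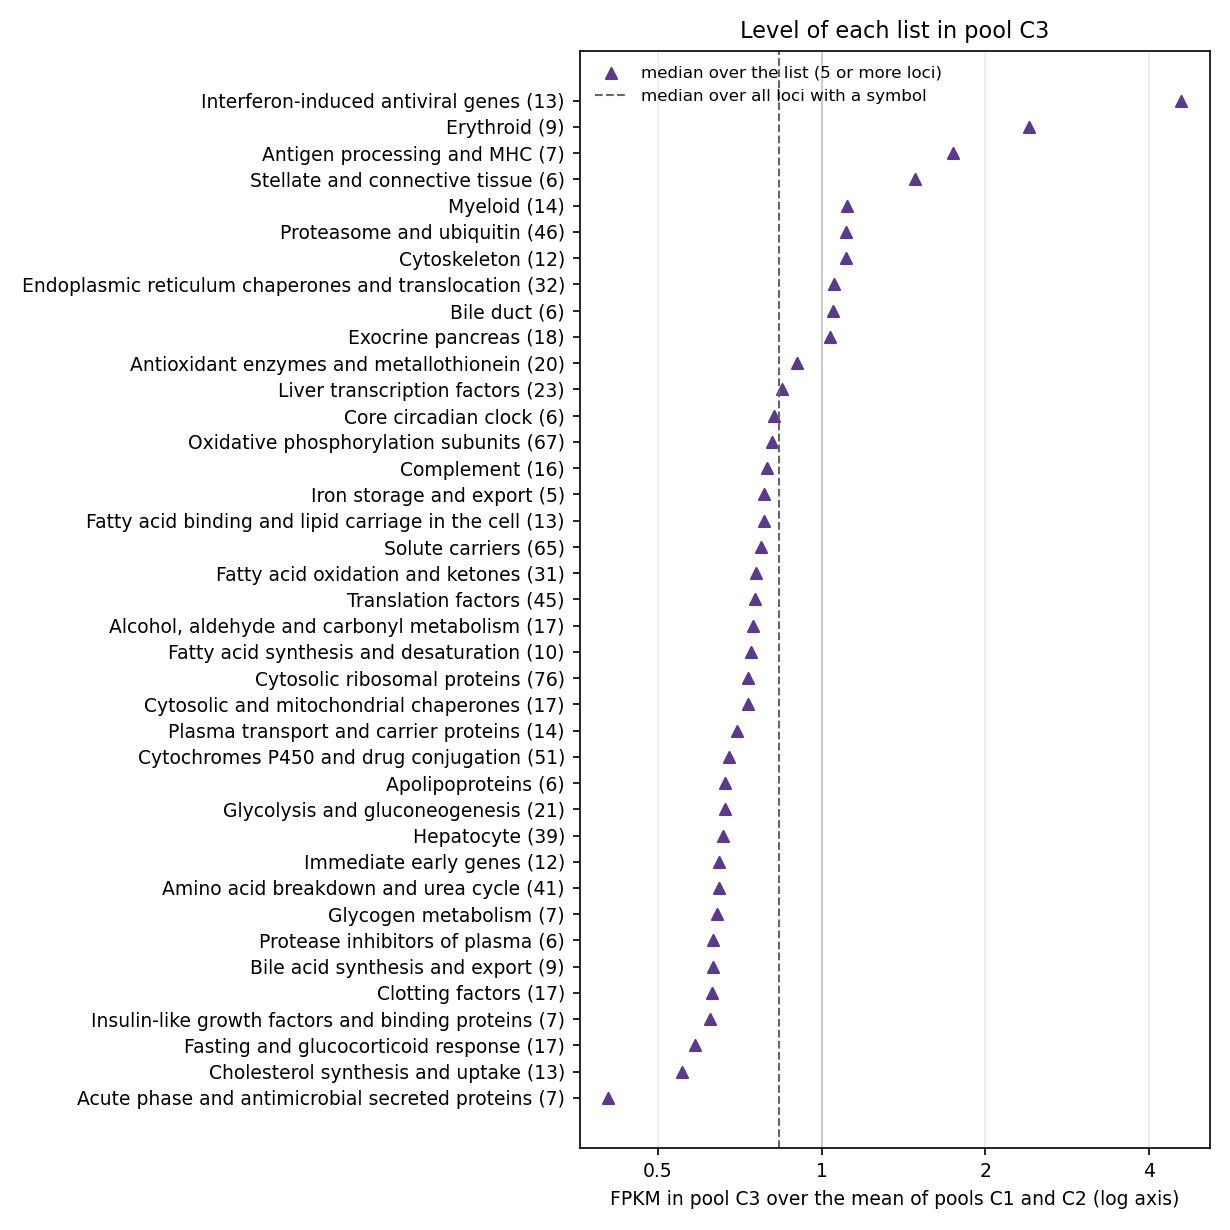
Level in pool C3 over the mean of C1 and C2 (log axis), as the median over each list with 5 or more loci of at least 10 FPKM (number in parentheses). The dashed line is the median over all named loci, 0.835. Interferon-induced genes lie farthest to the right at 4.57, and acute phase and antimicrobial proteins farthest to the left at 0.406. Among the interferon-induced genes, cmpk2, usp18 and dhx58 reached a mean of 10 FPKM only through C3, so the filter raises that median. In the erythroid list klf1 and gata1a likewise passed only through C3.

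Interferon-induced antiviral genes stood highest in C3. Of the 13 members of at least 10 FPKM, 11 ranged by 2-fold or more (84.6%, beside 17.4% of all named loci) and 11 were highest in C3, beside 18.9% of all named loci. The ubiquitin-like gene isg15, which is conjugated to proteins during infection, had 79.4, 61.9 and 1085 FPKM in C1, C2 and C3. The gene rsad2 (viperin), an enzyme that makes a chain-ending nucleotide, had 20.5, 7.73 and 271 FPKM, and cmpk2, its neighbour on scaffold GL831263.1 and a nucleotide kinase, had 11.9, 5.79 and 90.7 FPKM. In all 3, C3 stood apart and C2 was the lowest. The deconjugating protease gene usp18, which limits interferon signalling, had 10.8, 3.03 and 51.9 FPKM. Among the signalling members, the transcription factor genes irf1b and stat1a had 32.6, 28.8 and 221 FPKM and 19.6, 10.3 and 68.5 FPKM. The receptor gene dhx58, which modulates the sensing of viral RNA, had 10.2, 2.95 and 48.8 FPKM. In these 4 genes too C3 was the highest pool and C2 the lowest. The gene ifi30, a lysosomal reductase, had 69.1, 29.4 and 31.3 FPKM and was highest in C1. The 2 members without a 2-fold range were both loci named trim25, with 13.2, 17.01 and 13.1 FPKM and 11.1, 9.50 and 16.3 FPKM. After median-ratio scaling 11 of the 13 were still highest in C3. The genes cmpk2, usp18 and dhx58 reached a mean of 10 FPKM only through C3, so their place in the counts follows from the filter.

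Red blood cell genes had the same pool highest. Of 9 erythroid loci of at least 10 FPKM, 8 ranged by 2-fold or more (88.9%, beside 17.4% of all named loci). Of the 9, 7 were highest in C3, beside 18.9% of all named loci. Both counts include klf1, at 6.02, 5.61 and 22.4 FPKM, and gata1a, at 4.74, 6.20 and 21.8 FPKM. These genes reached a mean of 10 FPKM only through C3, so their place in the counts follows from the filter. The carbonic anhydrase gene cahz, which is known from fish red cells, had 46.6, 61.8 and 161 FPKM, and slc4a1a had a ratio of highest to lowest pool of 4.05. The transferrin receptor gene tfr1a, which takes up iron and is shared with other cells, had 351, 159 and 214 FPKM, with C1 highest. The summed erythroid list was 591 FPKM in C1, 466 FPKM in C2 and 892 FPKM in C3. This sum includes the shared gene tfr1a, whose values above make up most of it in C1 and place C1 over C2. The connective tissue list summed to 87.4 FPKM, 169.7 FPKM and 206 FPKM. The part of either list in the interferon difference was not tested.

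Chaperones of the endoplasmic reticulum followed another pool. In 24 of the 32 loci of at least 10 FPKM, C2 was the lowest pool, beside 21.6% of all named loci, and in 24 C1 was the highest, beside 41%. A range of 2-fold or more was reached by 9 (28.1%, beside 17.4% of all named loci). After median-ratio scaling C2 was lowest in 26, while C1 was highest in 15 and C3 in 17. The gene hsp90b1, the main folding protein of its class in that compartment, had 212, 56 and 180.3 FPKM in C1, C2 and C3. The calreticulin gene calr3b, a lectin that holds new glycoproteins, had 222, 73.97 and 140.1 FPKM, and a locus named HSPA5, for the chaperone BiP, had 72.7, 33.9 and 160.1 FPKM. C2 was the lowest in each of these 3. The disulfide isomerase gene pdia3 had 298, 176 and 270.0 FPKM and ssr2, a subunit of the translocon-associated complex, 312, 209.8 and 221 FPKM.

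Genes of the sterol pathway were lower in C3. Of 13 loci of the cholesterol list, 7 ranged by 2-fold or more (53.8%, beside 17.4% of all named loci) and 12 were lowest in C3 (10 after median-ratio scaling). C3 was lowest in 56.9% of all named loci, and in 79.6% of those at 100 to 1000 FPKM. The gene insig1, which holds the sterol sensor in the endoplasmic reticulum, had 334, 253 and 27.8 FPKM and was the only cholesterol gene among the 25 most variable loci. The receptor gene ldlra, which takes up low density lipoprotein, had 36.5, 32.97 and 13.7 FPKM. Acute phase and antimicrobial proteins had 5 of 7 loci ranging by 2-fold or more (71.4%) and 6 of 7 lowest in C3. Most of the 7 had means of at least 100 FPKM. C3 was lowest in 79.6% of named loci at 100 to 1000 FPKM and in 85.1% from 1000 FPKM, so the count of 6 is near the share at these levels. None of 6 plasma protease inhibitors, 17 cytosolic and mitochondrial chaperones and 6 clock genes of at least 10 FPKM ranged by 2-fold, counts too small to set apart from the 17.4% of all named loci.

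The 25 named loci with the largest SD were then described one by one or in groups. The highest pool was C1 in 10, C2 in 5 and C3 in 10. The order of the list is that of the SD of log2(FPKM + 1), which chose its members, so their spread is a description. The values just inside the list were those of insig1 and si:ch211-244b2.4 (SD 1.94 each), and just outside it those of a locus named btd (1.91) and usp18 (1.87).

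**Figure D5:**
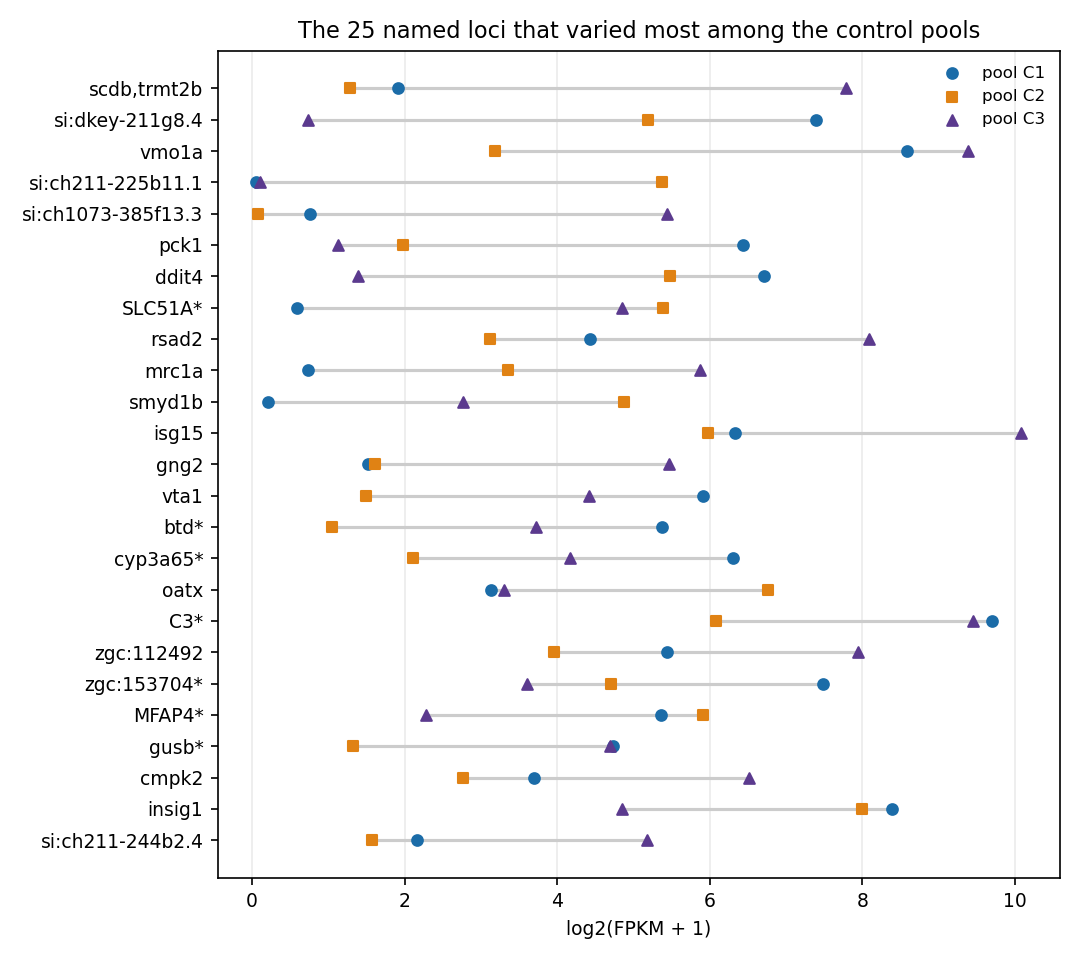
Level as log2(FPKM + 1) of the 25 named loci with the largest SD among the control pools, with 1 point for each C pool and a grey line from lowest to highest. An asterisk marks a name that the table gives to several loci. In 10 of the 25 the highest pool was C3, as in isg15, rsad2 and cmpk2, and in 10 it was C1, as in pck1 and ddit4. Over all named loci the highest pool was C3 in 18.9% and C1 in 41%.

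Several of the 25 are known from the response to food and stress. The gene pck1, which makes phosphoenolpyruvate for new glucose, had 85.5, 2.93 and 1.19 FPKM in C1, C2 and C3, so that C1 lay far above both other pools. The gene ddit4, which restrains growth signalling under stress, had 104, 43.8 and 1.61 FPKM and had the same order of pools. Its locus lies at GL831242.1:1656365-1657602, and a second ddit4 locus with the same span was listed at 0 in C1 and C2 and at 23.1 FPKM in C3, so that the reads of C3 may be divided. Beside it, a locus that carries the names scdb and trmt2b, for a desaturase and a tRNA methyltransferase, had 2.77, 1.43 and 220.3 FPKM and the largest SD of all, 3.59. The 2 names share 1 locus, and the value of each gene cannot be told apart. Both pck1 and this locus reached a mean of 10 FPKM only through their highest pool, so their place in the list follows from the filter.

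A second group were secreted or membrane proteins with copies. The gene vmo1a, named for a protein of the outer vitelline membrane of the egg, had 383, 8.13 and 665 FPKM, with C2 alone low. One locus named for complement component C3 had 829.9, 66.8 and 698 FPKM and was likewise low in pool C2 only. Other loci of that name differed, with 357, 501 and 236 FPKM and 48.3, 67.2 and 30.6 FPKM, both highest in pool C2. A further copy, at 4.89, 1.93 and 3.43 FPKM, was lowest in pool C2. A locus named btd, for the enzyme that frees biotin, had 40.6, 1.07 and 12.2 FPKM, and a neighbouring copy just outside the list had 2376, 171 and 839.9 FPKM, with the same order of pools. The steroid-oxidizing locus cyp3a65 among the 25 had 77.9, 3.32 and 17 FPKM, while the most abundant of the 7 loci of that name had 414, 517 and 451 FPKM. All 7 share 1 span in the table, and reads may be split among such copies.

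Some of the variable genes were high in 1 pool alone. The transporter gene oatx, of the organic anion transporter family, had 7.78, 107 and 8.86 FPKM and was high in C2. The mannose receptor gene mrc1a, a marker of scavenging endothelium and macrophages, had 0.67, 9.20 and 57.8 FPKM, with C3 highest. The histone methyltransferase gene smyd1b, known from muscle, had 0.16, 28.3 and 5.81 FPKM. The G protein subunit gene gng2 had 1.88, 2.07 and 43 FPKM. The genes oatx, mrc1a, smyd1b and gng2 reached a mean of 10 FPKM only through their highest pool. Their place in the list therefore follows from the filter. A locus named SLC51A, for a bile acid and steroid exporter, had 0.50, 40.9 and 27.8 FPKM and was low in C1 alone. The gene vta1, which acts in sorting at the endosome, had 59.1, 1.82 and 20.3 FPKM and was highest in C1. A locus named gusb, for a lysosomal glucuronidase, had 25.7, 1.5 and 24.8 FPKM, with C2 alone low. The remaining members, zgc:112492, a copy named zgc:153704, a copy named MFAP4, si:dkey-211g8.4, si:ch211-225b11.1, si:ch1073-385f13.3 and si:ch211-244b2.4, have no role stated here.

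Other variable genes lay below the top 25. The growth factor gene igf2 had 45.02, 13.2 and 3.91 FPKM in C1, C2 and C3 and was highest in C1. It reached a mean of 10 FPKM only through C1. The gene cyp7a1, given above, ranged by 2.88 on the log2 scale, with C2 highest and C3 lowest. Among the immediate early genes, 6 of 12 ranged by 2-fold or more (50%, beside 17.4% of all named loci), led in level by gadd45ga, a growth arrest gene, at 241, 84.4 and 109.6 FPKM, with C1 highest. The genes zfp36l1a, which destabilizes messenger RNA, and a locus named GADD45B had 85.5, 62.4 and 52.1 FPKM and 116, 38.95 and 44.5 FPKM.

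Loci with a pool at 0 were kept apart, since an exact 0 in such a table can be a failed estimate. There were 1697 loci with a mean of at least 10 FPKM and a pool at 0, of which 1376 spanned under 300 bp and 13 had a symbol. The first was a locus named knstrn, for a protein of the mitotic spindle, listed at 0 in C1 and C2 and at 4472 FPKM in C3, while another locus with the same name and span stood under 1 FPKM in each pool. The transketolase gene tktb was listed at 196, 0 and 139.7 FPKM, with C2 at 0. Loci named after small RNAs were also among the first 5, with SNORA62 at 2545, 0 and 0 FPKM and SCARNA16 at 0, 0 and 169 FPKM. The locus apoda.1, for an apolipoprotein D, was listed at 0, 16.5 and 101 FPKM.

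The steadiest abundant genes were spread over several functions. The 10 with the smallest SD among named loci of at least 100 FPKM included atp5g1, a membrane subunit of the ATP synthase, at 128, 130.4 and 125 FPKM, ptmaa (prothymosin alpha) at 619, 607 and 645 FPKM and a locus named HMOX1, for heme oxygenase, at 234, 221 and 225 FPKM. The others were arpc1b, pabpc1b, afmid, slc13a5a, AP3B1 and loci named UBE2E1 and rbp5, with SD values from 0.06 to 0.07 on the log2 scale. Steadiness depended on scaling, since 3 of the 10 stayed among the 10 steadiest after median-ratio scaling and 9 after scaling on all loci above 0. The latter factors were 1.008, 1.016 and 1.006 in C1, C2 and C3, so they could change little.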

How the data were processed

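Liver RNA was sequenced from 9 pools, and the 3 C pools were used. The authors deposited FPKM per locus. The study's methods describe alignment to the Ensembl genome of Oreochromis niloticus with TopHat and a comparison of libraries with Cufflinks, while the submitters' processing notes name HISAT2 2.0, StringTie 1.3.0, Bowtie 0.12.2 and a mouse build, and which of these made the deposited table is not given in the sources used here. The build of the scaffolds is not given in the sources used here, and positions are 1-based on the table's scaffolds.

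Values were read as deposited. SD and range were computed on log2(FPKM + 1) for loci with a mean of at least 10 FPKM and no pool at 0, with a range of 1 or more counted as 2-fold. No test was made. Gene names come from the table, and 135 loci carry several symbols. Among the 475 named loci with a mean of at least 100 FPKM, 105 share their span with another named locus.

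Named by rule were the 30 highest loci, the 3 highest of each list, all detected acinar markers, the 25 most and 10 least variable loci and 5 loci with a pool at 0. Of these, 1 locus is not reported here. Other genes were named after their values were seen. The members and lists were chosen with earlier results of these data known, and 118 symbols were removed from lists and 4 lists added after values were seen. Median-ratio scaling divided each pool by its median ratio to the geometric mean over the loci counted. Alternatives were pseudocounts, filters, scaling, and leaving out each pool. Scripts were tested on simulated data and ran in Python 3.11.15 with pandas 2.3.3, numpy 2.4.6 and matplotlib 3.10.9.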

Additional observations from a re-analysis of the deposited data

How the results depend on the processing

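The share of the 10, 50 and 100 most abundant loci was 22.9%, 41.9% and 50.8% of the summed FPKM. With loci under 300 bp left out, a setting chosen after seeing the data, it was 30.8%, 54.4% and 65.0%. Over named loci alone, the 50 and 100 highest held 55.0% and 67.1%. Leaving out 1 pool at a time gave ranges of 19.9% to 25.2%, 38.3% to 44.0% and 47.6% to 53.5%. Of all FPKM, apolipoproteins held 2.40%, against 8.55% of the symbol FPKM, 3.08% on medians of the pools and 3.69% without short loci. The same 3 settings gave 5.58%, 1.94% and 2.42% for plasma carriers, 4.95%, 1.58% and 2.14% for clotting factors and 27.8%, 9.09% and 12.0% for ribosomal proteins.

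The count of 1960 loci that ranged by 2-fold or more became 4504 of 15950 at a mean of at least 1 FPKM, 903 of 1925 at a mean of at least 50 FPKM, 3657 of 7066 with zeros kept and 469 with a symbol only, the last chosen after seeing the data. Leaving out 1 pool gave 1164 (without C3) to 1542 (without C2), from 2 pools in place of 3. Of the 25 most variable named loci, 22 remained after median-ratio scaling and 14 without C3. The difference of C2 and C3 in the acinar list was 0.24 on the log2 scale and lay between 0.04 and 0.45 over the settings. No paired analysis was possible because the pools of 1 group were described and no groups were compared.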

Other observations

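Genes that react to fasting and glucocorticoids were mostly lowest in C3. The list was added after values were seen, and 16 of its 17 loci with a mean of at least 10 FPKM were lowest in C3, beside 56.9% of all named loci (47.0% at 10 to 30 FPKM and 79.6% at 100 to 1000 FPKM), while 10 ranged by 2-fold or more (58.8%, beside 17.4%). The glucocorticoid-induced gene fkbp5, a partner of the steroid receptor, had 21.4, 49.4 and 4.40 FPKM in C1, C2 and C3. The transcription factor gene klf9 had 18.7, 12.5 and 0.90 FPKM. Like pck1, both were lowest in C3, but they were otherwise not alike. The gene fkbp5 was highest in C2, klf9 in C1, and pck1 was low in C2 as well, at 2.93 FPKM. A link to the interferon-induced genes, which were highest in C3, was not tested.

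Antigen processing genes were mostly highest in C3, in a list also added after values were seen. Of 7 loci with a mean of at least 10 FPKM, 6 were highest in C3 beside 18.9% of all named loci, and 3 ranged by 2-fold or more (42.9%, beside 17.4%). Both counts include socs1b, at 3.64, 3.73 and 25.98 FPKM, which is not itself an antigen processing gene. They also include tap1, and both genes reached a mean of 10 FPKM only through C3. Their place in the 2 counts therefore follows from the filter. The 7 also include the locus named both C1R and tapbpl, which was lowest in C3. The class I light chain gene b2m had 2217, 2145 and 3807 FPKM. The proteasome activator gene psme2 had 31.9, 31.6 and 103 FPKM, and the peptide transporter gene tap1 had 3.98, 3.52 and 26.8 FPKM. Of 23 liver transcription factors, in a further list added after values were seen, 2 ranged by 2-fold or more (8.70%, beside 17.4% of all named loci), and hnf4a, a regulator of hepatocyte identity, had 28.3, 25.2 and 17.3 FPKM.

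Abundant loci without a usable name lie between nprl3 and kank2 on scaffold GL831149.1. The locus ENSONIG00000001489 had 12402, 17837 and 46249 FPKM in C1, C2 and C3, ENSONIG00000001457 had 6110.0, 7178 and 26862 FPKM, and si:xx-by187g17.1 had 2405, 3568 and 9123 FPKM. Together they summed to 20916, 28584 and 82233 FPKM, so that C3 was highest in each, as in the erythroid list. Loci named hbae3 in the same region had at most 2.37 FPKM in any pool.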
